A study of Canis lupus familiaris with 20 samples.

Results

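OSCA-8 is an established cell line of canine osteosarcoma, the commonest bone tumour of dogs. RNA of its exosomes was compared with RNA of the cells that released them. The comparison held 4 of the 20 samples in the series, chosen by their titles: OSCA-8 exosomes 1 and 2, recovered from culture supernatant, and OSCA-8 cells A and B. No treatment or genetic change is given for either group. The other 16 samples were cells and exosomes of the lines OS-1, OS-2 and OSCA-78 and exosomes of OSCA-32. The study sought an exosomal gene signature for residual disease in dogs, and this comparison asks how the RNA released by one line resembles that of its source.

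Exosomes are small membrane vesicles that form inside the endosomes of a cell and are released when these fuse with the cell surface. They carry proteins, messenger RNA fragments and small RNA, and vesicles of tumour cells circulate in blood, which is why their RNA is studied as a marker. ExoQuick, the reagent named in the labels, precipitates vesicles together with other particles of the supernatant. An effect of this recovery cannot be told apart from a difference between exosomes and cells. OSCA-8 is a single line, and no label ties its replicates to separate cultures. P-values measure the spread between samples within groups, shared over the lines fitted together, which may be technical.

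Counts are whole reads per gene. OSCA-8 cells A held 13301840 counts and cells B 10898942. Exosomes 1 held 391218 and exosomes 2 held 365381. Levels are given as CPM, the counts of a gene as a proportion of all counts of the sample, scaled to 1e+06. At these depths 3 counts, the upper limit that a count of 0 allows, make 0.226 and 0.275 CPM in cells A and B, but 7.67 and 8.21 CPM in exosomes 1 and 2. These limits cover counting error only. The 24579 genes carry Ensembl identifiers that the file does not pair with names, and 0 of them matched the gene table at hand. Bone, vesicle and other marker lists could therefore not be applied, and the labelled cell type was not checked against markers. Identifiers are printed for 4 genes, chosen by a rule, and other genes are described by their levels.

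More genes were detected in exosomes than in cells. A count was found for 16273 genes in cells A and 15850 in cells B, against 20245 in exosomes 1 and 20560 in exosomes 2, although the cell samples were far deeper. Thinned to 365381 counts, the total of exosomes 2, the cells showed 12401 and 12263 genes and the exosomes 20115 and 20560. Both exosome samples lay above both cell samples. With 5 counts required and no thinning, cells A and B showed 14299 and 13875 genes. Exosomes 1 and 2 then showed 14275 and 14752, so exosomes 1 lay just below cells A. With 2 samples against 2, an exact two-sided permutation test cannot go below p = 0.333, so measures per sample are given with no test.

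In OSCA-8, a few genes took more of the exosome counts than of the cell counts. The 10 most abundant genes held 9.61% of cells A and 9.20% of cells B, against 28.2% of exosomes 1 and 19.4% of exosomes 2. The effective number of genes, the exponential of the Shannon entropy of the shares, was 3543 in both cell samples, 2341 in exosomes 1 and 4257 in exosomes 2. By that measure, which weights genes by their share, the exosome samples lay on either side of the cells. Thinned to 259078 counts, the smallest total in the series, OSCA-8 exosomes showed 19360 and 19855 genes. At that depth OS-2 exosomes showed 15910 and 14883, and the exosomes of OS-1, OSCA-32 and OSCA-78 between 19694 and 20403. The share of the 10 most abundant genes in other exosome samples fell into a low and a high range. It was 1.63% to 2.82% in OS-1 exosomes 3 and 4, both OSCA-32 samples and OSCA-78 exosomes 3. Every cell sample lay above that, the lowest being OS-2 cells B at 5.78%. In OS-1 exosomes 1 and 2, both OS-2 exosome samples and OSCA-78 exosomes 2 it was 14.4% to 62.7%. Both OSCA-8 exosome values lie inside this high range.

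**Figure D1:**
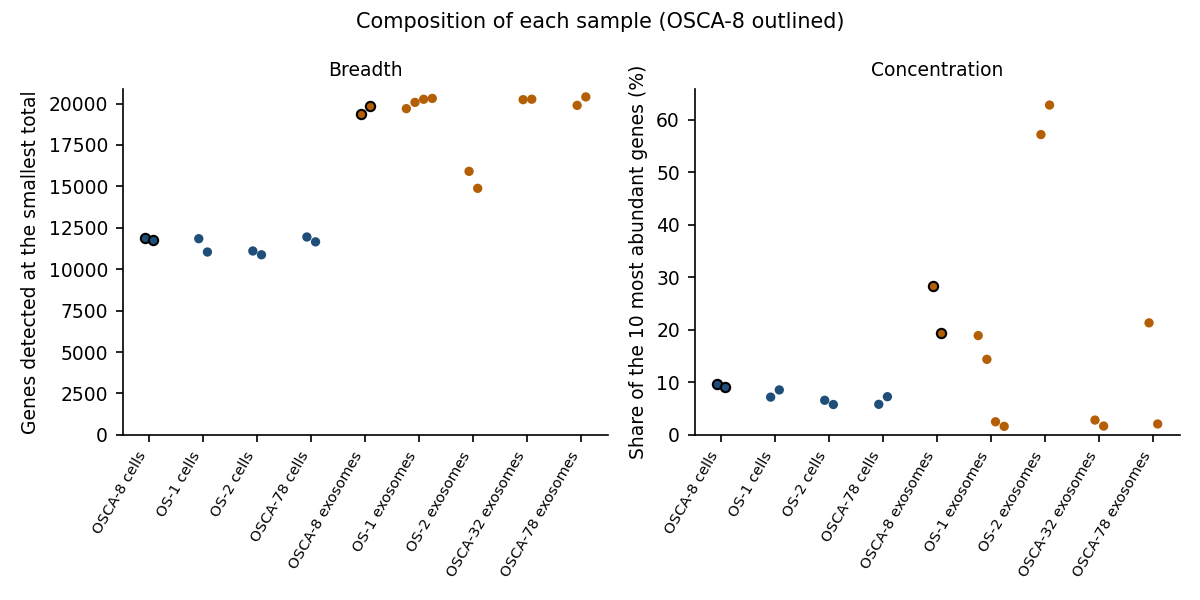
Genes detected after thinning every sample to 259078 counts (left) and share of counts in the 10 most abundant genes in percent (right), 1 point per sample by group, with OSCA-8 outlined in black. OSCA-8 exosomes stand at 19360 and 19855 genes against 11899 and 11767 in OSCA-8 cells, and their 10 leading genes hold 28.2% and 19.4% of counts.

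The ranking of genes was flatter in exosomes than in cells. Genes with a count in cells A were divided into 10 groups of equal size by their level there, from group 1, the scarcest, to group 10, the most abundant. Cells B took no part in forming the groups and show what the grouping alone does. From group 2 to group 10, the median level rose from 0.526 to 207 CPM in cells A and from 0.367 to 202 CPM in cells B. Over the same groups it rose only from 12.8 to 74.1 CPM in exosomes 1 and from 16.4 to 76.6 CPM in exosomes 2. The lines crossed at about group 7, where the medians were 34.4 and 33.6 CPM in cells and 30.7 and 35.6 CPM in exosomes. A median of 12.8 CPM is 5 counts in exosomes 1, so the lower groups rest on few reads per gene.

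**Figure D2:**
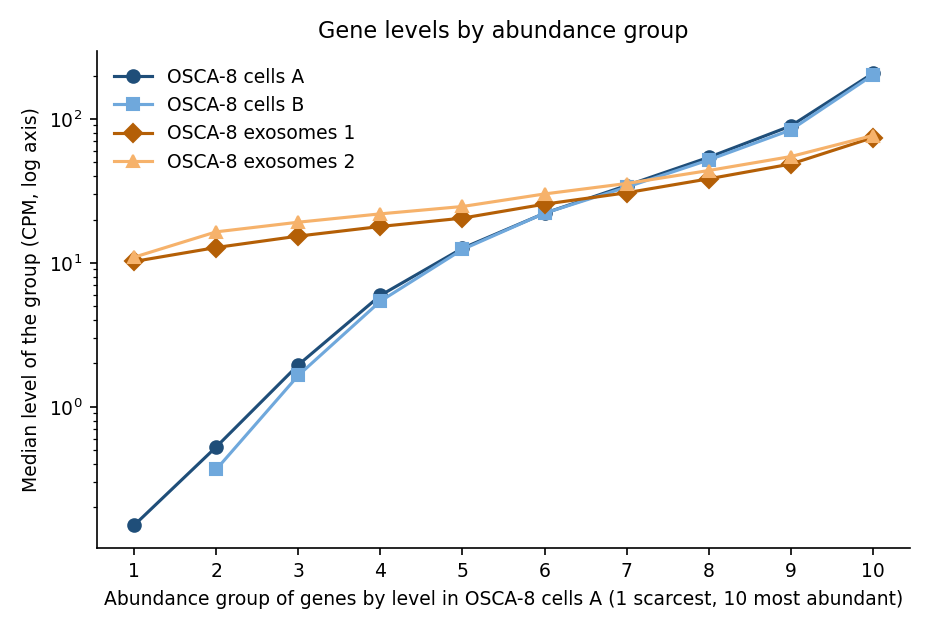
Median level of each abundance group in CPM (log axis) against the group number, 1 line per OSCA-8 sample, with groups formed from cells A alone. Cells B follow cells A, while both exosome samples run from 10.2 and 10.9 CPM in group 1 to 74.1 and 76.6 CPM in group 10; the median of cells B in group 1 is 0 and is not drawn.

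Transcripts that made up most of the cell RNA therefore made up a smaller part of the exosome RNA. Group 10, the 1628 most abundant genes, held 63.5% of cells A and 60.3% of cells B, but 17.7% of exosomes 1 and 17.4% of exosomes 2. When the groups were formed from cells B, group 10 held 32.3% and 29.4% of the exosomes, because 1 gene that alone took over 10% of the exosome counts then entered it. Without the 4 genes that each exceeded 1% of an OSCA-8 exosome sample, and with groups from cells A, group 10 held 23.6% and 20.8% of the exosome counts and 63.5% and 60.3% of the cell counts. Groups 1 to 4, with genes of up to 8.95 CPM in cells A, then held 22.1% and 22.7% of the exosome counts. Those groups held 1.44% of cells A and 2.58% of cells B.

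**Figure D3:**
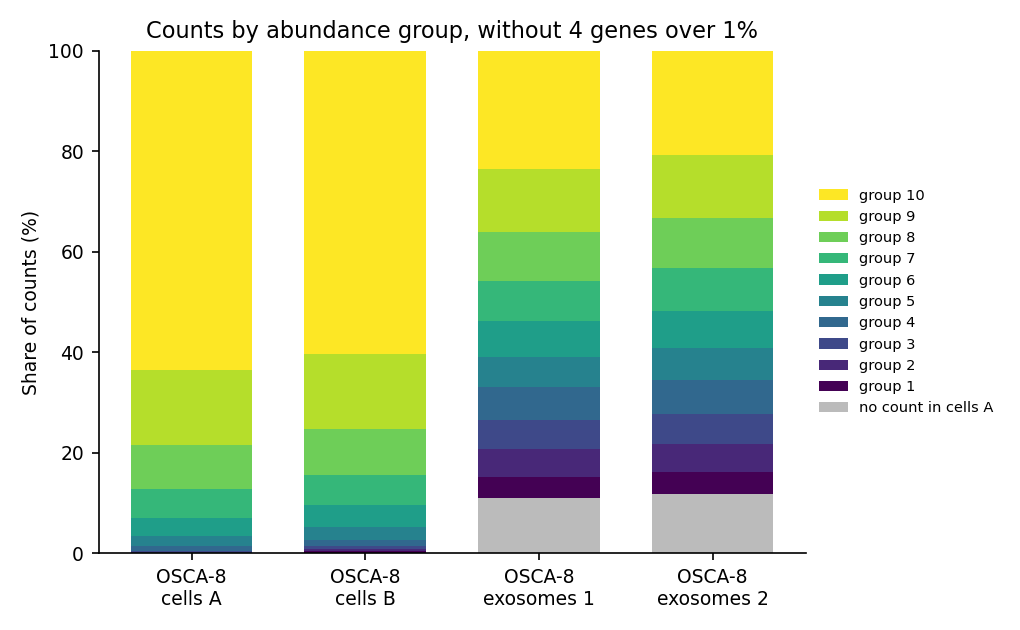
Share of counts in percent by abundance group, 1 bar per OSCA-8 sample, leaving out the 4 genes over 1% of an exosome sample; grey marks genes with no count in cells A. Group 10 fills 63.5% and 60.3% of the cell bars and 23.6% and 20.8% of the exosome bars, and grey fills 10.99% and 11.8% of the latter.

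By gene, 9510 of 16211 tested genes (58.7%) differed between OSCA-8 exosomes and cells. Of these, 6005 (37.0% of those tested) were higher in exosomes and 3505 (21.6%) were lower, taking an adjusted p under 0.05 in the quasi-likelihood test of edgeR (Benjamini-Hochberg). A fold over 2 was reached by 5995 higher and 3461 lower genes. The genes called higher were scarce in cells, with a median of 0.188 CPM there and 30.5 CPM in exosomes. The genes called lower had a median of 103 CPM in cells and 36.9 CPM in exosomes. Genes entered the test by reaching 20.8 CPM in 2 or more samples of any group. A gene scarce in OSCA-8 cells entered through exosomes or through cells of other lines. At such levels a call of lower was hardly possible, and none of the genes under 1 CPM in OSCA-8 cells was called lower (0 of 3505). Among the higher genes, 1969 had no OSCA-8 cell count, 2128 more had a mean under 1 CPM in cells and 1764 lay between 1 and 20 CPM. The remaining 144 had a mean of at least 20 CPM in cells. A call of higher did not require a count in both exosome samples. Genes with no cell count were called higher with 0 and 3, 9 and 0, or 0 and 8 counts in exosomes 1 and 2. Of all genes with no OSCA-8 cell count, tested or not, 555 had at least 10 counts in both exosome samples. Many of the 1969 calls thus rested on few exosome reads. The balance of directions depended on scaling: 63.1% of calls were higher with TMM, and 75.3% with RLE, 76.4% with total counts and 73.5% with upper quartile scaling. The median log2 fold change of all tested genes was 0.36 with TMM and 0.88, 0.92 and 0.81 with the others.

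**Figure D4:**
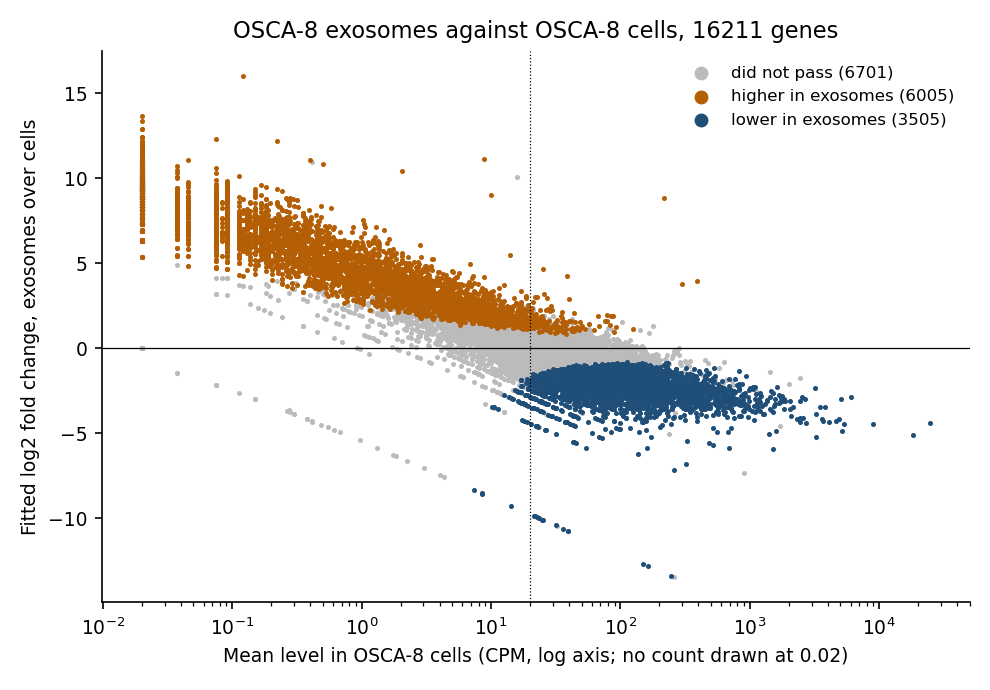
Fitted log2 fold change of exosomes over cells against the mean level in OSCA-8 cells (CPM, log axis), 1 point per tested gene, coloured by call; the dotted line marks 20 CPM. The 6005 higher genes lie mostly left of 20 CPM and the 3505 lower genes mostly right of it; the slanting lines of points at the bottom are genes with no or few exosome counts.

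Among genes that cells expressed well, far more fell than rose. At least 20 CPM in both cell samples was reached by 6791 tested genes. Of these 3355 (49.4%) were lower in exosomes, 101 (1.49%) were higher and 3335 did not pass (edgeR, adjusted p under 0.05). Their median log2 fold change was -1.24, against 0.36 over all tested genes. The 5th percentile was -3.27 and the 95th was 0.54. With RLE scaling 2163 were lower and 309 higher, with a median of -0.71. The genes were selected by their cell level, which also enters the fold.

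The fall grew with the level in cells. The classes were cut by the mean of cells A and B, which also enters the fold, so part of this trend may be built in. Of 2505 genes with a mean of 20 to 50 CPM, 542 were lower and 83 higher, with a median log2 fold change of -0.62. Of 3406 genes at 50 to 200 CPM, 2003 were lower and 15 higher, with a median of -1.37. Of 880 genes over 200 CPM, 810 were lower and 3 higher, with a median of -2.57. With RLE scaling the classes gave 224 lower and 250 higher, 1215 and 56, and 724 and 3, so that the balance of the scarcest class turned while that of the others did not.

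The 101 well-expressed genes that rose made up 0.537% of cells A and 0.412% of cells B, but 18.8% of exosomes 1 and 16.2% of exosomes 2. Most of that came from 1 gene, described below with the dominant genes. Their log2 fold changes ran from 0.87 to 8.85 with a median of 1.34, and 15 exceeded a fold of 4. The 3355 that fell made up 70.6% and 72.2% of the cells and 17.96% and 18.3% of the exosomes. The 3335 that did not pass held 21.6% and 19.5% of the cells and 19.7% and 22.3% of the exosomes. Calls of higher and lower rest on these same OSCA-8 samples. The direction of the shifts in share of the genes that rose or fell is thus largely built in.

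Loss was graded and rarely complete. From the lower of the 2 cell levels, 5844 genes predicted at least 20 counts in the pooled exosome samples. A count in each exosome sample was present for 5801 of them, and 68 had under 10% of the predicted counts, of which 5 had none. The most abundant of these 5 had 4732 counts in cells A (356 CPM) and 1459 in cells B (134 CPM), where 101 exosome counts were predicted. With a limit of 3 counts over the pooled exosomes, it was at least 33.8-fold lower there than in the lower of the cell samples (edgeR adjusted p = 2.76e-04). By the same measure the other 4 were at least 16.2-fold, 13.9-fold, 9.90-fold and 8.44-fold lower. Cell levels of the genes at 16.2-fold and 13.9-fold differed over 4-fold between replicates, with 64.1 and 265 CPM and with 55.0 and 244 CPM. These 5 were picked after their counts were seen. Exosomes of other lines held some counts of each of them, such as 25 in OSCA-78 exosomes 2 for the most abundant. In the other direction, 3 of the 5844 genes had over 10 times the counts predicted from the higher cell level.

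For the named genes the rule asked for a call in OSCA-8, at least 10 counts in each of the 4 samples and exosome values all on one side of the cell values, ordered by fitted fold. It was met by 1264 higher and 1895 lower genes. ENSCAFG00000030140 led the higher ones. It had 124 counts in cells A and 92 in cells B, and 11875 in exosomes 1 and 9744 in exosomes 2. Its level was 8.88 ± 0.623 CPM in cells and 28511 ± 2606 CPM in exosomes (SD, n = 2 each). Replicates lay close together, while the distance from the other group was a condition of the rule. On the log2 scale the difference was 11.13 (SE 3.63) with an edgeR adjusted p of 0.0152. Here and below, SE is the absolute log2 fold change divided by the square root of the F statistic of the test. It is worked back from the test and is not an error that edgeR reports. Without cells A the adjusted p was 0.0896, and without cells B it was 0.0941.

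ENSCAFG00000030616 was second, with 19 and 29 counts in cells A and B and 1687 and 1341 in exosomes 1 and 2. Its level was 2.04 ± 0.871 CPM in cells and 3991 ± 454 CPM in exosomes (SD, n = 2 each). On the log2 scale the difference was 10.41 (SE 3.63) with an edgeR adjusted p of 0.0265. The adjusted p was 0.137 without cells A, 0.120 without cells B, 0.0512 without exosomes 1 and 0.0619 after thinning all samples. Levels of both genes also spread widely in other lines, which entered the shared fit. Whether that spread widened the errors was not tested. In an edgeR fit of the 4 OSCA-8 samples alone the adjusted p was 4.51e-04 for ENSCAFG00000030140 and 4.44e-04 for ENSCAFG00000030616. Those samples had also picked the 2 genes. With all 18 samples, DESeq2 gave adjusted p of 1.1e-06 and 4.8e-05 in the same order.

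In exosomes of other lines both genes fell into a high and a low range. ENSCAFG00000030140 stood at 19299 and 19035 CPM in OS-1 exosomes 1 and 2 but at 14.6 and 9.08 CPM in OS-1 exosomes 3 and 4. It stood at 18963 CPM in OSCA-78 exosomes 2 and 53.9 CPM in OSCA-78 exosomes 3. It reached 53079 and 48838 CPM in OS-2 exosomes and only 26.8 and 2.47 CPM in OSCA-32 exosomes. OSCA-8, like OS-2, had both exosome samples on the high side. Counts of ENSCAFG00000030140 were 7.04 and 7.27 times those of ENSCAFG00000030616 in OSCA-8 exosomes 1 and 2. In the other 5 exosome samples on the high side that ratio was 6.21 to 7.53, and in cells it ran from 3.17 to 17.2. No source used here says how reads shared by similar genes were counted, so the split between the 2 genes is uncertain if they are similar.

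ENSCAFG00000030508 led the lower genes. It had 5852 counts in cells A, 28092 in cells B, 17 in exosomes 1 and 10 in exosomes 2. In CPM these were 440 and 2577 in cells and 43.5 and 27.4 in exosomes, so cells differed by more than a factor of 5 between replicates. That both cell values lay above both exosome values was required by the rule. On the log2 scale the difference was -5.92 (SE 1.17) with an edgeR adjusted p of 4.68e-04. ENSCAFG00000008404 was second, at 1978 and 4478 CPM in cells A and B and 135 and 118 CPM in exosomes 1 and 2. Its difference was -5.19 (SE 0.90) with an edgeR adjusted p of 8.14e-05. In every other line with both fractions, cell values of these 2 genes lay above the exosome values of that line.

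**Figure D5:**
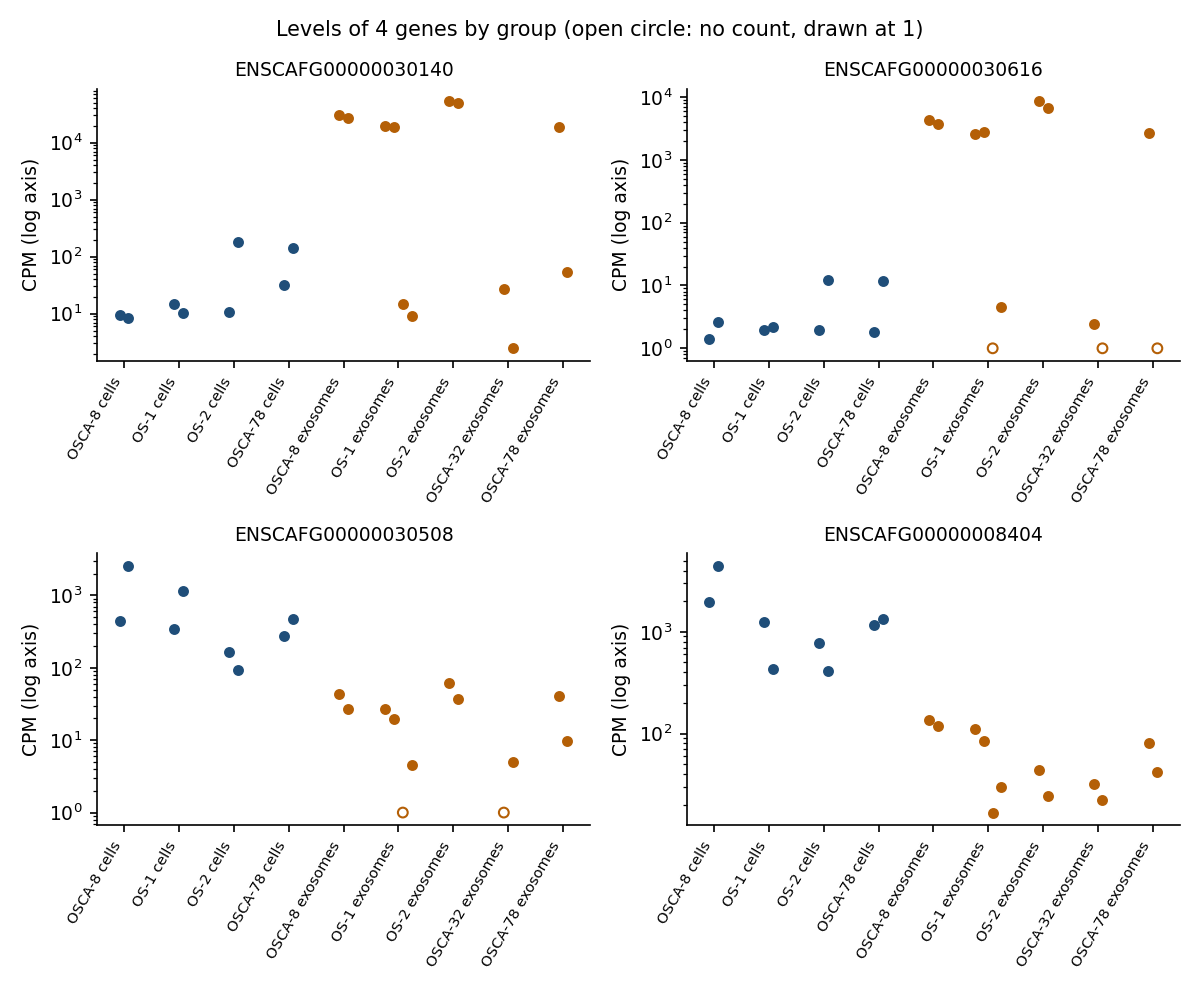
Level in CPM (log axis) of the 4 named genes in all 20 samples, 1 point per sample by group, cells in blue and exosomes in orange. In OSCA-8 the upper 2 genes stand at 30354 and 26668 CPM and at 4312 and 3670 CPM in exosomes, against under 10 CPM in cells; the lower 2 genes stand higher in cells in each line with both fractions.

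A handful of genes dominated OSCA-8 exosomes. Each of 4 genes exceeded 1% of an exosome sample, and together they held 25.1% of exosomes 1 and 16.6% of exosomes 2, but 0.00845% of cells A and 0.0398% of cells B. They were chosen by their exosome share, so part of their gap to cells, and of the folds given here, is built in. The gene that led each cell sample held 2.38% of cells A and 2.58% of cells B. The most abundant of the 4 took 15.6% of exosomes 1 with 61144 counts and 13.0% of exosomes 2 with 47450 counts. In cells it had 998 counts in A and 3899 in B, or 75.0 and 358 CPM. It rose by 8.85 on the log2 scale (SE 3.26, edgeR adjusted p = 0.0256). That call was lost without cells A (adjusted p = 0.122) and without cells B (adjusted p = 0.0745). The same gene took 8.91% to 32.3% of OS-1 exosomes 1 and 2, both OS-2 exosome samples and OSCA-78 exosomes 2. In the other 5 exosome samples it took 0.0274% to 0.0640%. ENSCAFG00000030140 was another of the 4, with 3.04% and 2.67%.

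The remaining pair was less even between replicates. One had 7031 counts in exosomes 1 and 3322 in exosomes 2 with 2 and 1 counts in cells. The other had 18183 counts in exosomes 1, 4.65% of that sample, and 20 counts in exosomes 2. Its level in exosomes 1 was thus 849 times that in exosomes 2. In cells it had no count in A and 346 in B. It did not pass the test (log2 fold change 10.09, SE 4.998, edgeR adjusted p = 0.0967). This gene makes up most of the gap between the replicates in the share of the 4 genes.

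Both exosome samples held reads from genes without a count in OSCA-8 cells. No count among the 24200782 pooled OSCA-8 cell counts was found for 7393 genes, a limit of 0.124 CPM. These genes held 24499 counts of exosomes 1, or 6.26% (Clopper-Pearson 95% interval 6.19% to 6.34%), and 27226 of exosomes 2, or 7.45% (7.37% to 7.54%). The intervals cover counting error only and do not overlap. A count in both exosome samples was found for 3334 of them, in either for 5290 and in neither for 2103. Among those with counts in both, the median was 4 counts in exosomes 1 and 5 in exosomes 2. At least 10 counts in both were reached by 555 genes, of which 252 had counts in cells of other lines. The most abundant of the 555 had 270 counts in exosomes 1 and 42 in exosomes 2, so these genes were many and individually scarce. In the other lines the share of counts from genes without a count in the cells of the same line was 2.97% and 3.11% in OS-2 exosomes. It ran from 8.23% to 12.9% in OS-1 and OSCA-78 exosomes, so that OSCA-8 lay between.

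Replicates resembled each other more than the other fraction did. Over 22476 genes with a count in OSCA-8, Spearman's rho was 0.95 between cells A and B and 0.85 between exosomes 1 and 2. Between exosomes and cells it was 0.56 to 0.59. These are descriptions across genes, which share depth and library. The difference was also compared between pairs with no sample in common. Over 6792 genes of at least 20 CPM in both cell samples, the log2 ratio of exosomes 1 to cells A correlated with that of exosomes 2 to cells B at a Pearson's r of 0.70, and the sign was the same for 79.1%. Both cell samples chose these genes, and the median fitted log2 fold change of the tested ones was -1.24. Some agreement in sign is thus built in. Both ratios also subtract cell levels, which ranked these genes alike in A and B (Spearman's rho 0.83). Part of the correlation of 0.70 can come from the cells alone, and how much was not tested.

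Replicates of both fractions nevertheless differed by more than counting error, with a chi-square per degree of freedom of 138 in cells and 3.31 in exosomes. That value grows with depth, so it does not rank the fractions. Of 8378 genes with at least 20 CPM in either cell sample, 406 differed over 4-fold. Of 136 genes with at least 100 counts in either exosome sample, 4 differed over 4-fold, all higher in exosomes 1. Neither pair was thus 1 library deposited again. Leaving out each of the 18 samples in turn gave 5514 to 6941 higher and 2450 to 3861 lower genes.

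Genes called in OSCA-8 moved alike in lines that share no sample with it. Of the 3355 well-expressed genes that fell in OSCA-8, the fitted log2 fold change was negative for 3343 in OS-1, 3327 in OSCA-78 and 3117 in OS-2. Among all 6791 well-expressed genes it was negative for 85.7%, 84.9% and 82.1%. The median of the 3355 genes was -2.09 in OSCA-8, -2.36 in OS-1, -2.30 in OSCA-78 and -1.09 in OS-2. Of the 101 that rose in OSCA-8, it was positive for 98 in OS-1, 94 in OSCA-78 and 80 in OS-2, against 14.3%, 15.1% and 17.9% of the well-expressed genes. These backgrounds were not matched for level in cells. The median level in OSCA-8 cells was 107 CPM for the genes that fell and 35.0 CPM for those that rose. For those that did not pass it was 45.8 CPM. The part of cell level in the likeness between lines was not tested.

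Whether the OSCA-8 difference itself departed from that of other lines was tested as an interaction. Against the mean of the other 3 lines, 0 of 16211 genes (0%) passed an adjusted p under 0.05 in edgeR. Without adjustment 1513 lay under 0.05. DESeq2 called 200 and limma voom 0. With a replicate block for the letters of the cell samples, edgeR called 105, and with letters and exosome numbers 4. The count was 222 without OS-1 cells A, 39 without OS-1 cells B, 49 without OS-2 cells A, 23 without OSCA-78 cells B, 133 without OSCA-8 cells A and 4 without OSCA-8 cells B. No gene of at least 20 CPM in both OSCA-8 cell samples was 10 times above all cell samples of other lines, and none was under 1 CPM in all of them (0 genes by either rule), so transcripts particular to OSCA-8 cells could not be followed into exosomes.

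Taken line by line, a choice made after seeing the data, OSCA-8 differed mainly from OS-2. Against OS-1, 0 genes (0%) passed in edgeR and 1120 lay under 0.05 without adjustment, while DESeq2 called 51, limma voom 0 and edgeR with the letters as replicate block 5. Without OS-1 cells A the count was 212, without OSCA-8 cells A it was 41 and without OS-1 exosomes 2 it was 1. Against OSCA-78 it called 17 (0.105%), 13 (0.0802%) with a greater exosome excess in OSCA-8 and 4 (0.0247%) with a smaller one, and 50 with the block. That count was 31 and 32 without OS-1 cells A and B, 11 without OS-2 exosomes 2, 33 without OSCA-78 cells B, 46 without OSCA-8 cells A, 3 and 7 without OSCA-78 exosomes 2 and 3, and 6 and 8 without OSCA-8 exosomes 1 and 2.

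Against OS-2 it called 843 (5.20%), 247 (1.52%) greater and 596 (3.68%) smaller in OSCA-8, and 1331 with the block. The count fell to 279 without OS-2 cells B, 274 and 335 without OS-2 exosomes 1 and 2, 556 without OSCA-8 cells B, and 323 and 278 without OSCA-8 exosomes 1 and 2. For the 596 genes the median log2 fold change was 0.08 in OSCA-8 and 5.31 in OS-2. Their median level was 26.4 CPM in OSCA-8 cells and 0.454 CPM in OS-2 cells, against 38.6 and 18.9 CPM in the exosomes. For the 247 genes it was 1.16 and 26.3 CPM in the cells and 47.7 and 11.6 CPM in the exosomes. Mean levels of OSCA-8 and OS-2 differed over 4-fold in cells for 534 of the 843 genes and in exosomes for 181. Of all 16211 genes, 12.02% did so in cells and 13.4% in exosomes. The contrast that chose the 843 genes holds these same levels, so an excess over all genes is partly built in. Before the ratio 0.5 CPM was added in cells and 5 CPM in exosomes, which makes a 4-fold gap harder to reach in exosomes. The counts of the fractions therefore do not show which of them the calls came from. The direction of the OSCA-8 difference was opposite to that of OS-2 for 128 of the 247 and 143 of the 596 genes. Choosing genes by the gap between these 2 fold changes favours opposite signs. The share among all tested genes was not counted, so no excess can be read from this.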

How the data were processed

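Whole-number read counts per gene were deposited by the authors in 1 table of 24579 identifiers. Dog build CanFam3.1, mouse build GRCm38.p5, FastQC 0.11.5, Trimmomatic 0.33.0 and kallisto 0.43.0 are named without a role, per the submitters' processing notes. The name of the deposited counts holds the word subread, which those notes do not list, so the tool that counted the reads is not settled here. The strand setting and the treatment of shared reads: not given in the sources used here. Per the labels' protocols, ExoQuick, the SeraMir ExoRNA Amp kit and a SMARTer stranded kit for total RNA of low input were used, and these protocols do not separate cells from exosomes. There was 1 column that matched no sample and was not used.

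Groups came from sample titles. Genes were tested with edgeR 4.0.16 (limma 3.58.1, R 4.3.3) by the quasi-likelihood F test with TMM scaling, filterByExpr at a minimum count of 10, robust dispersions and Benjamini-Hochberg adjustment at 0.05. Library sizes were summed over the genes that passed the filter. Sums over all genes were tried first, and the change was made after those counts were seen, to follow the earlier processing. The fit held 18 samples of the 4 lines with both fractions and a coefficient for each line and fraction. It was first run on simulated data, with known folds put into OSCA-8 exosomes and the same mean profile in all groups otherwise. That run did not imitate the gap in composition between cells and exosomes, so it does not test the scaling or the filter under that gap. DESeq2 1.42.0 and limma voom were alternatives, beside other scalings, filters, thinning, blocks and samples left out. Genes detected after thinning are expected numbers under sampling without replacement. For correlations of ratios 2 CPM were added, and for comparing mean levels of lines 0.5 CPM in cells and 5 CPM in exosomes.

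Exosomes and cells of a line share no replicate label. The difference of cells B minus cells A gave correlations across genes of 0.159 to 0.445 in all 6 pairs of lines, a hint of pairing by letter that the labels do not state. No block entered the reported fit, and blocks were alternatives, given where they moved a count. For exosome numbers 1 and 2 it was -0.0142 to 0.0164. Named genes followed the rule given with them, limited to 2 in each direction without names. The comparison, lists and tests were chosen with earlier results of these data known.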

Additional observations from a re-analysis of the deposited data

Results flagged for a closer look

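The difference between OSCA-8 exosomes and cells departed from that of OS-2 in 843 genes and from that of OSCA-78 in 17, by the interaction test of edgeR at an adjusted p under 0.05. Both were singled out because the test of the difference between lines passed for some genes. OS-2 exosomes also stand apart in composition, with 57.1% and 62.7% of counts in 10 genes against 28.2% and 19.4% in OSCA-8, and the part of that in the 843 calls was not tested.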

How the results depend on the processing

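The number of genes higher in OSCA-8 exosomes stayed within a factor of 1.5 of 6005 under all alternatives but a minimum count of 50, which tests 4859 genes and called 1463. The number lower, 3505, was 2228 with RLE scaling, 2084 with total counts, 1146 with the minimum count of 50, 1654 after thinning to the smallest total, and 1454 with total counts and no gene over 1% of an OSCA-8 exosome sample, an alternative chosen after seeing the data. Summing library sizes over all genes, the first setting tried, gave 6026 and 3458. Upper quartile scaling, no filter, DESeq2, limma voom, the replicate block and the fit of 4 samples kept it within that factor. The 4 named genes and the most abundant exosome gene kept their direction in all alternatives that tested them and their call in all but those given with them.

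The interaction with the other 3 lines, 0 genes in the main analysis, was 21 with no filter, 200 with DESeq2, 4 and 105 with the replicate block of letters and numbers and of letters alone, and 5 without the OS-2 line. Leaving out 1 sample gave 0 to 222. Against OS-1 it was 51 with DESeq2 and 44 and 5 with these blocks, and 0 to 212 with 1 sample left out. Against OS-2 it was 1374 with total counts, 341 with the minimum count of 50, 1505 with DESeq2, 125 after thinning, 1345 and 1331 with the blocks, and 274 to 1151 with 1 sample left out. Against OSCA-78 it was 9 with the minimum count of 50, 71 with DESeq2, 3 after thinning, 35 and 50 with the blocks, and 3 to 46 with 1 sample left out. The cause was not tested, except that thinning removes counts. Leaving out a sample left 1 in its group, save for OS-1 exosomes, which kept 3. The filter then passed 17389 to 17640 genes, and 15819 to 16041 for OS-1 exosomes, against 16211. A lone sample was assumed to vary like the other groups.

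Mean genes detected were 12332 in cells after thinning, and 14087 in cells and 14514 in exosomes with 5 counts required. In the latter case the cell and exosome samples overlapped. The 100 most abundant genes held 23.8% of cell counts. Group 10 held 30.9% of exosome counts with groups from cells B and 22.2% without the 4 dominant genes. Genes with no count in any cell sample held 4.23% of exosome counts. The exosome totals put the limit for a single gene at 7.67 and 8.21 CPM.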
